A study of Mus musculus with 9 samples.

Results

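The expression of 9 matrix metalloproteinase genes (Mmp2, Mmp3, Mmp9, Mmp10, Mmp11, Mmp12, Mmp13, Mmp14 and Mmp19) and of the inhibitor gene Timp1 was followed in primary 4T1 tumors of mice treated with the FAK inhibitor BI 853520, abbreviated BI. These 10 genes were chosen by name, as the secreted and membrane-bound proteases and the inhibitor of the invasion machinery, out of 18755 genes with counts. They and the other gene lists below were chosen with earlier results of these data known. The 4T1 line models aggressive breast cancer and grows in immunocompetent BALB/c mice, the strain it came from, and FAK is the focal adhesion kinase, which relays signals from integrins at the contacts between cells and matrix. Female BALB/c mice aged 6 to 10 weeks received 1000000 4T1 cells into a mammary fat pad, and from day 15 on they were given either 50 mg/kg BI or the vehicle, 0.5% Natrosol, for 5 days. RNA from whole tumor pieces gave 1 library per tumor, with 3 vehicle tumors and 6 BI tumors. Since whole tumor pieces were used, each library holds RNA of cancer cells and of host cells together. In such bulk samples, fewer cells of a type and less RNA per cell cannot be told apart.

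Library depth, as the sum of all gene counts of a tumor, was 20972840 at the median and ranged from 16931607 to 33850245. The deepest library was vehicle 3 and the shallowest BI 6. Levels are given as CPM, counts scaled to the TMM-normalized library size, when 1 gene is compared between tumors, and as RPKM, CPM per kilobase of gene length, when genes are compared with each other. In this unit 3 counts amount to between 0.0884 and 0.174 CPM, and all 10 genes lay above that floor and passed the filter on low counts. A floor of this kind covers counting error only. As a check of the labelled tumor type, the epithelial keratins Krt8 and Krt18 were at 478 ± 58.3 and 579 ± 57.7 CPM in the vehicle tumors (SD, n = 3), while the epithelial adhesion molecule Epcam was at only 2.13 CPM, and Krt14 and Krt5, keratins of the basal layer, were each under 1 CPM on average.

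Matrix metalloproteinases are zinc-dependent endopeptidases that are made as inactive proenzymes and are switched on by removal of their propeptide. The gelatinases Mmp2 and Mmp9 cleave denatured collagen and basement membrane collagen, the stromelysins Mmp3 and Mmp10 have a broad range of matrix substrates, Mmp13 is a collagenase that opens fibrillar collagen, and Mmp12 is an elastase best known from macrophages. Mmp14 is anchored in the plasma membrane and activates the proform of Mmp2 at the cell surface, a step in which the inhibitor Timp2 acts as an adaptor. Mmp11 (stromelysin 3) is known from the stroma of carcinomas and is cut by furin inside the cell. Timp1 binds the active site of most secreted members and the proform of Mmp9. In breast tumors, many of these enzymes are made by fibroblasts, macrophages and neutrophils as well as by cancer cells.

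On the mouse genome mm9, Mmp13 (chr9:7272514-7283333), Mmp12 (chr9:7344381-7369499), Mmp3 (chr9:7445822-7455972) and Mmp10 (chr9:7502352-7510238) lie in 1 cluster of 10 metalloproteinase genes that spans 427 kb. The other genes are scattered over the genome, with Mmp2 at chr8:95351227-95377316, Mmp9 at chr2:164766280-164781350, Mmp11 at chr10:75385967-75400678 on the minus strand, Mmp14 at chr14:55050441-55060095, Mmp19 at chr10:128228009-128237880 and Timp1 at chrX:20447292-20451861. All 10 are protein-coding genes. Exons of Mmp12 overlap those of its neighbour Mmp1b on the other strand, and how strand was used in counting is not given in the sources used here, but Mmp1b itself averaged 0.316 CPM in the vehicle tumors and 0.166 CPM in the BI tumors. Exons of Mmp11 and of Mmp19 each overlap another annotated gene as well, so that the counts of these 2 genes may hold reads of their neighbours.

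Promoter sequences from RefSeq (GRCm38.p6) matched 7 of the 10 genes, that is, all but Mmp2, Mmp9 and Mmp19. They are shown for a motif close to the start of the 3 genes called lower in the BI tumors, which was singled out with the fold changes known. The 100 bases before the annotated start of 6 genes are printed 5′ to 3′, with capitals for the motif of the transcription factor AP-1 (TGANTCA, the same letters on both strands) and for the TATA motif (TATAAA, searched on both strands). The motifs do not overlap each other in these windows.
Mmp3 (chr9:7445722-7445821, plus strand): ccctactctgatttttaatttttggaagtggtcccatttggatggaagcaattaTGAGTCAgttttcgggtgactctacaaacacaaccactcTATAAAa
Mmp10 (chr9:7502242-7502341, plus strand): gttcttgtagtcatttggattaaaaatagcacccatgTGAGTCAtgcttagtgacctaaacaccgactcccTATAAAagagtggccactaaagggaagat
Mmp13 (chr9:7272414-7272513, plus strand): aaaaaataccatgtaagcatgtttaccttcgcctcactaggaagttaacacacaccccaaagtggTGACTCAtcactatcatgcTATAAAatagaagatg
Mmp12, second annotated start (chr9:7347274-7347373, plus strand): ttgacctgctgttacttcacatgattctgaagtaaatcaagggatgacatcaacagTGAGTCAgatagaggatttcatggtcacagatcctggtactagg
Mmp14 (chr14:54431498-54431597, plus strand): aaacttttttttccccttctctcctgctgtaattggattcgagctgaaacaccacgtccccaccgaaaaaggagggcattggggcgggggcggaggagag
Timp1 (chrX:20870066-20870165, plus strand): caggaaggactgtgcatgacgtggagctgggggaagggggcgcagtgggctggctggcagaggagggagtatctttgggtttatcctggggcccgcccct

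The AP-1 motif began 46 bases before the start of Mmp3, 63 bases before that of Mmp10 and 35 bases before that of Mmp13. It also lay 44 bases before the second annotated start of Mmp12, though not in the window of the other Mmp12 start. No match of these letters was found in the windows of Mmp11, Mmp14 and Timp1. Among all 32851 promoters in the same table, 2.731% held the AP-1 motif in the 100 bases before the start, and 5.561% held the TATA motif there. Mmp3, Mmp10 and Mmp13 carried both. As these genes lie in the same cluster on chromosome 9, they cannot be taken as independent cases beside these shares. A motif of ETS factors, PEA3 (AGGAAG, searched on both strands), was found within the whole 300 bases of the promoters of Mmp3, Mmp13, Mmp14 and Timp1, of which Mmp14 was called higher, and at the other Mmp12 start. It was not found at the second Mmp12 start printed above or in the promoters of Mmp10 and Mmp11, and 35.35% of all promoters held it. A match is a description of the letters and no evidence that a factor was bound in these tumors.

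To test how the inhibitor treatment bore on these genes, BI and vehicle tumors were compared with edgeR's quasi-likelihood test across all 13966 genes that passed the filter, with adjusted p-values (Benjamini-Hochberg) over all of them. Mmp2 and Mmp14 were higher in the BI tumors, Mmp3, Mmp10 and Mmp13 were lower, and Mmp9, Mmp11, Mmp12, Mmp19 and Timp1 did not pass the threshold of 0.05. Thus 2 of 10 genes were called higher, against 14.6% of all genes tested, and 3 of 10 were called lower, against 14.1% of all genes tested. In 1 of the 10, Mmp14, every BI tumor lay above every vehicle tumor, a pattern seen in 14.1% of all genes tested. In 3 of the 10, Mmp3, Mmp10 and Mmp13, every BI tumor lay below every vehicle tumor, a pattern seen in 14% of all genes tested. Shares of 10 genes are too coarse to set these counts apart from the background. The median log2 fold change of the 10 genes was -0.38, beside -0.0037 over all genes tested.

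**Figure D1:**
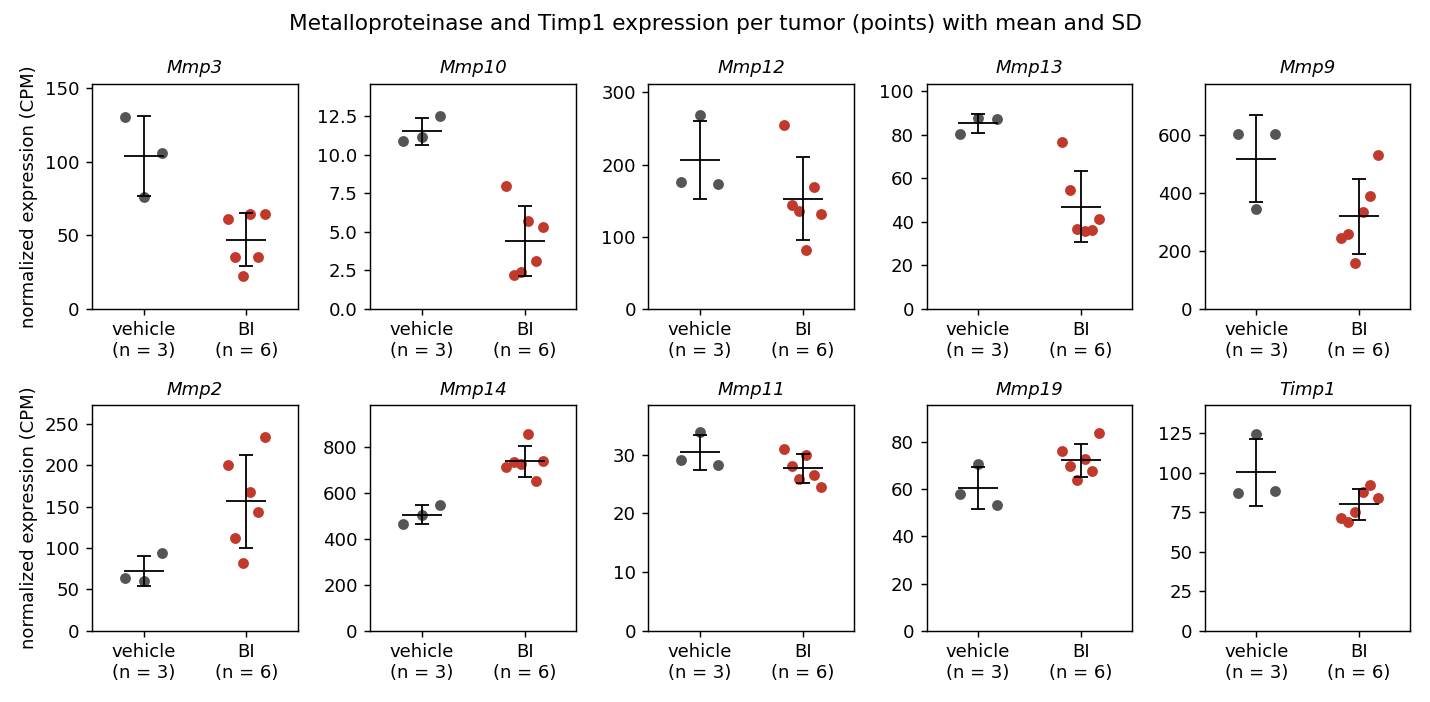
Expression of the 10 genes in each tumor as CPM (y axis, from 0, its own scale per gene) in the 3 vehicle (grey) and 6 BI (red) tumors, with the mean and SD as black bars. The points of the groups are separated for Mmp3, Mmp10, Mmp13 and Mmp14 and overlap for the other 6 genes.

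Among the stromelysins, Mmp3 fell to 45.3% of its vehicle level. Its level was 130, 76.1 and 106 CPM in vehicle tumors 1 to 3, and 61.0, 35.2, 22.6, 64.4, 35.5 and 64.3 CPM in BI tumors 1 to 6. The groups did not overlap, and within the BI group tumors 1, 4 and 6 lay together above tumors 2, 3 and 5. The log2 fold change was -1.14 (SE 0.285), with an adjusted p of 0.0113 by edgeR. The exact permutation test over the 84 divisions of the 9 tumors gave a two-sided p of 0.0238, the smallest this design allows. Without vehicle tumor 1, which had the highest value, the log2 fold change was -0.95 and the adjusted p rose to 0.0631.

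Mmp10 was the least abundant of the 10 genes and had the largest fall as a fold change. It was at 10.9, 11.1 and 12.5 CPM in the vehicle tumors and at 7.94, 2.19, 2.37, 5.67, 3.08 and 5.28 CPM in BI tumors 1 to 6. The vehicle tumors lay close together, and the BI tumors spread from 2.19 to 7.94 CPM, with tumor 1 nearest to the vehicle tumors. The log2 fold change was -1.37 (SE 0.321, adjusted p 0.00812), the exact permutation p was 0.0238, and the call held without each tumor in turn, with adjusted p-values of up to 0.0394. Mmp11, by name a stromelysin but with a narrower activity, was at 29.1, 33.8 and 28.3 CPM in the vehicle tumors and between 24.5 and 31.0 CPM in the BI tumors. Its groups overlapped, with a log2 fold change of -0.13 (SE 0.0902, adjusted p 0.288).

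The collagenase gene Mmp13 gave 80.3, 87.9 and 87.5 CPM in the vehicle tumors. In BI tumors 1 to 6 it gave 76.8, 54.6, 36.8, 35.6, 36.1 and 41.4 CPM. As for Mmp10, BI tumor 1 was nearest to the vehicle group, and tumors 3 to 6 lay within 35.6 to 41.4 CPM. The log2 fold change was -0.86 (SE 0.209, adjusted p 0.0100), the exact permutation p was 0.0238, and without each tumor in turn the adjusted p was at most 0.0415.

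Mmp12, the macrophage elastase, was at 176, 269 and 173 CPM in the vehicle tumors and at 255, 144, 136, 81.8, 168 and 131 CPM in BI tumors 1 to 6. BI tumor 1 was above 2 of the 3 vehicle tumors and the other 5 BI tumors were below all 3. The log2 fold change of -0.43 (SE 0.265) did not pass the test (adjusted p 0.244). Without BI tumor 1 it was -0.64 and passed with an adjusted p of 0.0368, whereas without vehicle tumor 2 it was -0.19 with an adjusted p of 0.683. Mmp3, Mmp10, Mmp12 and Mmp13 are 4 of the 10 metalloproteinase genes in the chromosome 9 cluster, and all but Mmp12 were called lower. They summed to between 147 and 158 RPKM in the vehicle tumors and to between 65.5 and 138 RPKM in the BI tumors. The highest of the BI tumors in this sum was tumor 1, and the next was at 90.7 RPKM. Mmp8 and Mmp27 of the same cluster had log2 fold changes of 0.21 and 0.84 without passing the test, Mmp27 at a mean of at most 1.20 CPM.

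Of the gelatinases, Mmp2 rose and Mmp9 did not pass the test. Mmp2 was at 63.1, 59.8 and 93.6 CPM in the vehicle tumors and at 199.8, 112, 81.9, 168, 143 and 234 CPM in BI tumors 1 to 6. All BI tumors but tumor 3 lay above the vehicle tumors. The mean rose from 72.2 ± 18.6 CPM (SD, n = 3) to 156 ± 56.2 CPM (SD, n = 6), a log2 fold change of 1.11 (SE 0.288, adjusted p 0.0135), with an exact permutation p of 0.0476. The call was lost without vehicle tumor 1 (adjusted p 0.0619) or without vehicle tumor 2 (adjusted p 0.0606).

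Mmp9 was at 604, 343 and 603 CPM in the vehicle tumors and at 243, 259, 158, 333, 390 and 528 CPM in BI tumors 1 to 6. BI tumors 1 to 4 were below all vehicle tumors, and tumors 5 and 6 lay within the vehicle range, above vehicle tumor 2. The log2 fold change was -0.70 (SE 0.299), which did not pass the test (adjusted p 0.101, exact permutation p 0.0714). Without BI tumor 6 it was -0.90 and passed (adjusted p 0.0237), whereas without vehicle tumor 1 or 3 it was -0.57 (adjusted p 0.281 and 0.283). The ratio of Mmp2 to Mmp9, in RPKM, was 0.108 to 0.180 in the vehicle tumors and 0.378 to 0.848 in the BI tumors, with no overlap.

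Mmp14, the membrane-bound activator of pro-Mmp2, had the highest level per length of the 10 genes in both groups. It was at 463, 500.2 and 547 CPM in the vehicle tumors and at 711, 735, 725, 854, 652 and 737 CPM in BI tumors 1 to 6. The groups were well separated, and the lowest BI tumor was more than 100 CPM above the highest vehicle tumor. The mean rose from 503 ± 41.8 CPM (SD, n = 3) to 736 ± 66.0 CPM (SD, n = 6). With a log2 fold change of 0.55 (SE 0.0869) and an adjusted p of 0.000814, its change was smaller in size than that of Mmp2 and better determined. The adjusted p stayed at or under 0.00749 without each tumor in turn, and the exact permutation p was 0.0238. Timp2, its adaptor toward pro-Mmp2, was also higher in the BI tumors (628 ± 20.2 against 732 ± 56.6 CPM, SD, n = 3 and 6, log2 fold change 0.22, adjusted p 0.0435). The ratio of Mmp14 to Timp2 in RPKM was 1.04 to 1.25 in the vehicle tumors and 1.25 to 1.65 in the BI tumors.

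Mmp19, which acts on basement membrane proteins, was at 57.8, 70.7 and 53.3 CPM in the vehicle tumors and between 64.0 and 83.8 CPM in the BI tumors. The groups overlapped, with 3 BI tumors above all vehicle tumors. Its log2 fold change of 0.26 (SE 0.0993) missed the threshold (adjusted p 0.0716), and passed without vehicle tumor 2 (adjusted p 0.0183) or without BI tumor 3 (adjusted p 0.0480). Without vehicle tumor 3 it was 0.17 (adjusted p 0.291).

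The inhibitor gene Timp1 was at 87.6, 125 and 88.8 CPM in the vehicle tumors and at 71.1, 69.0, 75.1, 87.9, 92.4 and 84.2 CPM in BI tumors 1 to 6. Vehicle tumor 2 stood above the rest, and the other 2 vehicle tumors lay within the range of the BI tumors. The log2 fold change was -0.33 (SE 0.123, adjusted p 0.0646 by edgeR's quasi-likelihood test). This call depended on the test, since the adjusted p was 0.0401 with edgeR's likelihood ratio test, 0.0398 with its exact test and 0.0458 with DESeq2. Without vehicle tumor 2 the log2 fold change was -0.14 (adjusted p 0.376), and without BI tumor 5 it was -0.36 and passed (adjusted p 0.0493).

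**Figure D2:**
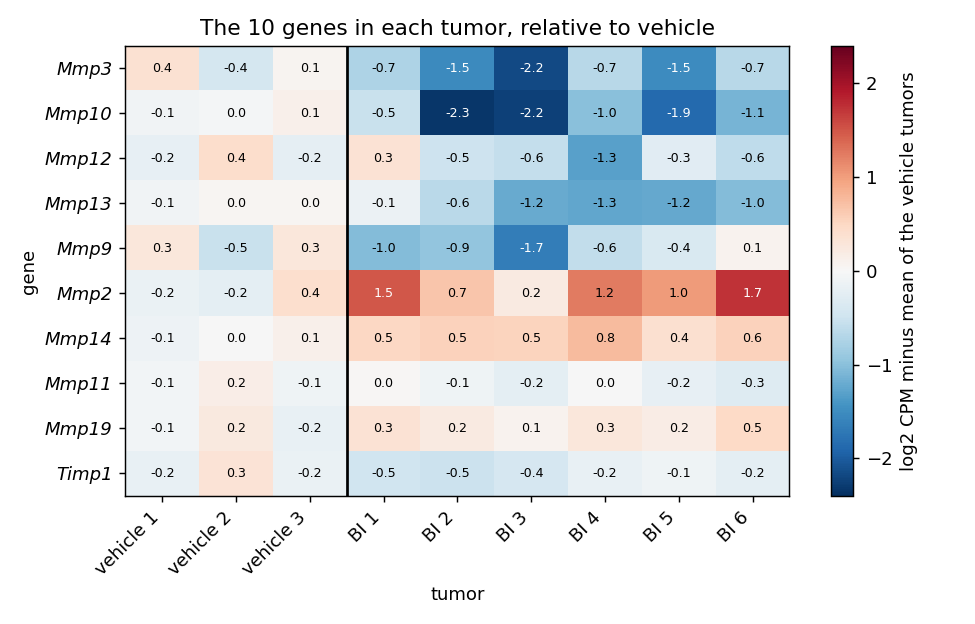
log2 CPM of each of the 10 genes (y axis) in each of the 9 tumors (x axis) minus the mean of the vehicle tumors, printed in each cell and coloured from blue (lower) to red (higher), with a line between the groups. Mmp3 and Mmp10 are lower in all BI tumors, Mmp2 and Mmp14 are higher in all of them relative to the vehicle mean, and BI tumor 1 is close to the vehicle mean for Mmp13 and above it for Mmp12.

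Ordered by level per length, Mmp14, Mmp9 and Timp1 held the highest 3 places in both groups. Mmp14 was at 194 and 283 RPKM, Mmp9 at 165 and 102 RPKM, and Timp1 at 113 and 89.9 RPKM in the vehicle and BI tumors. The ranges of Mmp14 and Mmp9 overlapped in the vehicle tumors (178 to 211 and 109 to 192 RPKM) and not in the BI tumors (251 to 329 and 50.3 to 168 RPKM), while those of Mmp9 and Timp1 overlapped in both groups. In the vehicle tumors Mmp3 (57.9 RPKM) and Mmp12 (57.2 RPKM) followed with overlapping ranges, then Mmp13 (31.9 RPKM), Mmp2 (23.7 RPKM), Mmp19, Mmp11 and Mmp10. In the BI tumors Mmp2 (51.4 RPKM) stood next, ahead of Mmp12 (42.3 RPKM) and Mmp3 (26.2 RPKM), although the ranges of Mmp2 and Mmp12 overlapped. Mmp10 was last in both groups, with 6.71 and 2.58 RPKM.

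The sum over the 9 metalloproteinase genes differed little between the groups, with 567 ± 48.7 RPKM in the vehicle tumors (SD, n = 3) and 558 ± 71.8 RPKM in the BI tumors (SD, n = 6). What differed was its makeup. Mmp14 made up 30.8% to 37.5% of this sum in the vehicle tumors and 43.3% to 61.8% in the BI tumors, without overlap. For Mmp9 the shares were 21.3% to 33.2% and 11.1% to 25.7%. The ratio of Mmp9 to Timp1 in RPKM overlapped widely, with 0.780 to 1.96 in the vehicle tumors and 0.595 to 1.78 in the BI tumors. These sums, shares and ratios are descriptions that restate the levels of the chosen genes, and they were not tested. The same holds for the ratios of Mmp2 to Mmp9 and of Mmp14 to Timp2 given above.

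**Figure D3:**
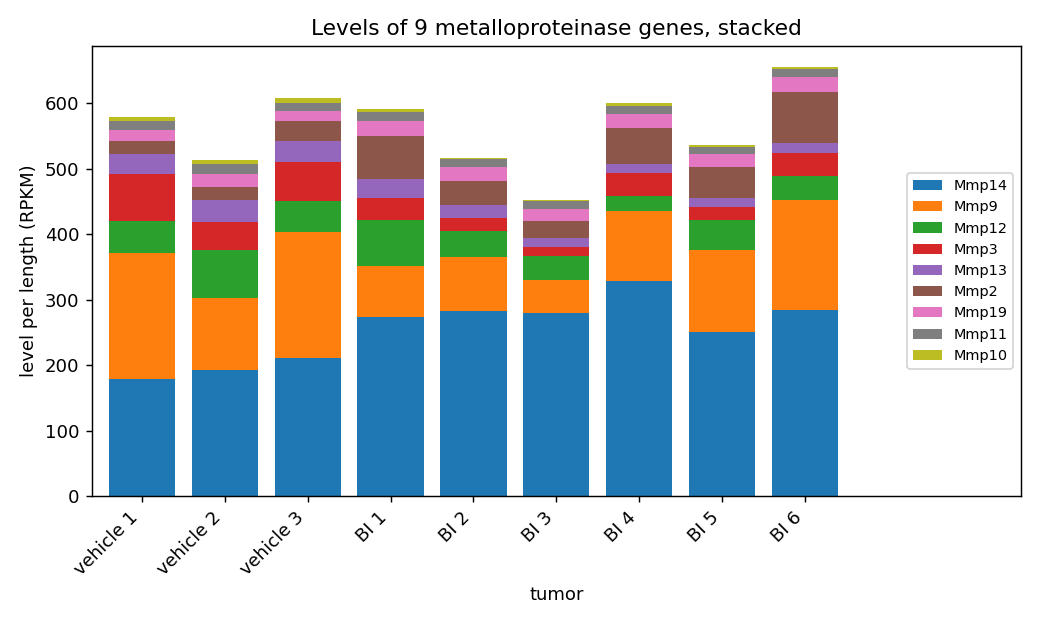
Level per length (RPKM, y axis from 0) of the 9 metalloproteinase genes stacked for each tumor (x axis), with 1 colour per gene. The height of the bars ranges from 452 to 655 RPKM in the BI tumors and from 513 to 609 RPKM in the vehicle tumors, and the lowest segment, Mmp14, is taller in every BI tumor.

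Pairs of the 10 genes were also compared within the 6 BI tumors. Mmp2 and Mmp3, which changed in opposite directions with BI, were high and low in the same BI tumors (Pearson's r 0.94, exact permutation p 0.00833, Spearman's rho 0.83, exact permutation p 0.0583, n = 6). Without the 2 tumors farthest from the median of Mmp2, r was 0.85. After adjustment over all 45 pairs of the 10 genes the p was 0.25, and none of the 45 pairs passed. Among all genes with a mean log2 CPM of at least 1, those whose level followed Mmp2 most closely over the 9 tumors, after each group's mean was subtracted, were Epb41l3, the matrix protein gene Tnc and Gas1 (r 0.99, 0.99 and 0.98). For Mmp3 they were Ifi209, Ifitm1 and Stk10 (r 0.97, 0.97 and 0.96), for Mmp9 Plpp3, Rnf113a2 and Dcstamp (r 0.98 for each), and for Mmp14 Foxp1, Entpd1 and Cgrrf1 (r 0.92, 0.92 and 0.90). For Mmp10 the closest was Napg (r 0.97), for Mmp11 Borcs6 (r 0.97), for Mmp12 Thap4 (r 0.97), for Mmp13 Spire1 (r 0.96), for Mmp19 Borcs5 (r 0.94) and for Timp1 Gm15421 (r 0.95). These are the highest values of r among very many genes, over 9 tumors, and are given as descriptions with no test.

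Of 14 other genes of the metalloproteinase family, 12 had counts and 8 passed the filter. Of these, 3 were higher in the BI tumors and 0 were lower, with a median log2 fold change of 0.73. Of all genes tested, 14.6% were called higher and 14.1% lower. Without vehicle tumor 3, only 1 of these family genes was called higher. Mmp28 (epilysin) rose from 14.8 ± 3.83 to 31.6 ± 6.35 CPM (SD, n = 3 and 6, log2 fold change 1.10, SE 0.198, adjusted p 0.00187), with all BI tumors above the vehicle tumors. Mmp25, a membrane-anchored enzyme known from neutrophils, rose from 8.90 to 13.5 CPM (log2 fold change 0.61, adjusted p 0.0108), and Mmp23 from 4.25 to 6.59 CPM (log2 fold change 0.62, adjusted p 0.0393). Mmp8, the neutrophil collagenase that lies in the chromosome 9 cluster, was at 10.9 and 12.6 CPM (log2 fold change 0.21, adjusted p 0.476). Mmp15, Mmp16, Mmp17 and Mmp27 had log2 fold changes between 0.35 and 1.04 without passing the test, the latter 3 at mean levels of at most 1.20 CPM. Mmp1a, Mmp1b, Mmp21 and Mmp24 did not pass the filter on low counts.

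Of the other inhibitors, 4 of 5 passed the filter and 2 were higher, 0 lower (median log2 fold change 0.28), where 14.6% of all genes tested were higher. The count was 0 without vehicle tumor 1, and 1 without vehicle tumor 2 or BI tumor 2, 4 or 6, so that the call of Timp2 given above is lost without vehicle tumor 1 as well. Besides Timp2, these were the plasma protease inhibitor gene A2m, from 2.69 to 5.43 CPM (log2 fold change 0.99, adjusted p 0.0181). Timp3, the matrix-bound inhibitor, was at 53.6 and 68.3 CPM (log2 fold change 0.34, adjusted p 0.0894), and the membrane-anchored inhibitor gene Reck was at 16.1 and 16.7 CPM (log2 fold change 0.05, adjusted p 0.706). Timp4 did not pass the filter.

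**Figure D4:**
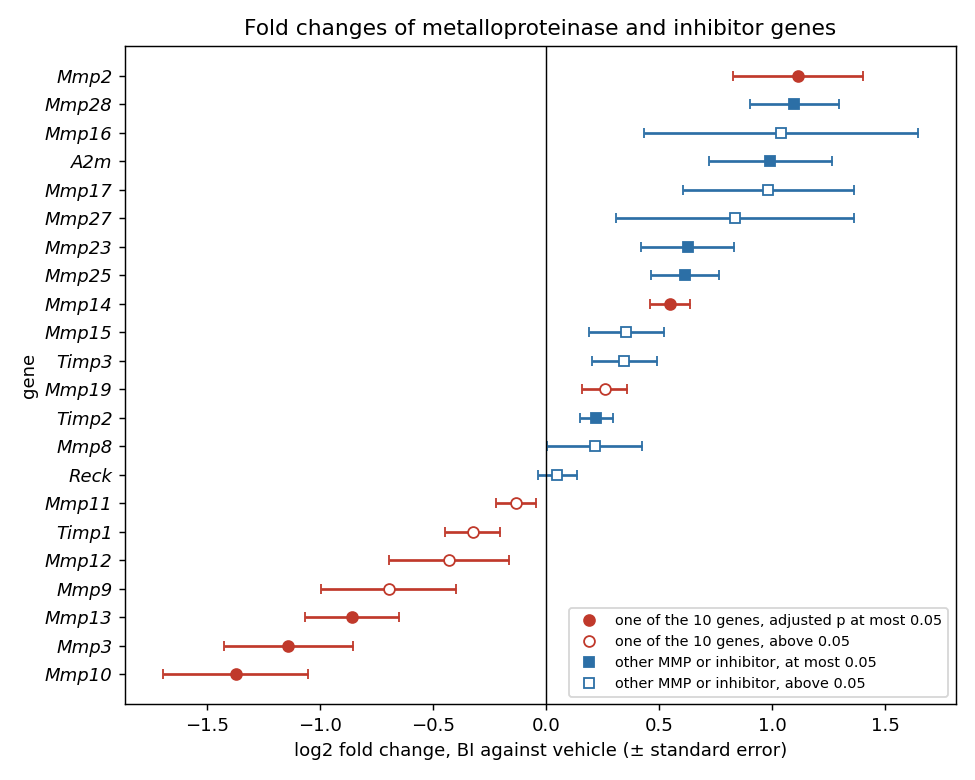
log2 fold change of BI against vehicle (x axis, with the standard error as bars) for the 10 genes (red circles) and the 12 other metalloproteinase and inhibitor genes that passed the filter (blue squares), with filled symbols where the adjusted p was at most 0.05. The values run from -1.37 for Mmp10 to 1.11 for Mmp2, and all 12 blue squares lie above 0.

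Of 11 tested genes for enzymes that activate metalloproteinases, 4 were higher and 1 was lower (median log2 fold change 0.27). Of all genes tested, 14.6% were higher and 14.1% were lower. The gene that fell was Plau (urokinase), whose product starts the plasmin cascade that opens the proenzymes. It went from 517 ± 43.3 to 347 ± 23.1 CPM (SD, n = 3 and 6, log2 fold change -0.58, SE 0.0731, adjusted p 0.00021), and every BI tumor lay below every vehicle tumor. Those that rose were Pcsk7, a proprotein convertase of the furin type (log2 fold change 0.46, adjusted p 0.00110), and the granule proteases Tpsb2 (3.25, adjusted p 0.00631), Cma1 (3.10, adjusted p 0.00576) and Ctsg (1.38, adjusted p 0.0338). Tpsb2 and Cma1 are mast cell proteases. They are themselves 2 of the 7 mast cell markers in the list, of which 6 were higher (median log2 fold change 2.93), against 14.6% of all genes tested. The 7 markers summed to 24.7 to 43.1 CPM in the vehicle tumors and to 46.7 to 360 CPM in the BI tumors. The part of mast cells in the levels of Tpsb2 and Cma1 was not tested.

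Of 15 transcription factor genes of the AP-1, ETS and RUNX families, which bind motifs found in many metalloproteinase promoters, 0 were higher and 4 were lower (median log2 fold change -0.14). The shares over all genes tested were 14.6% higher and 14.1% lower. Fosl1, which encodes the AP-1 subunit Fra-1, fell from 72.6 ± 5.04 to 41.2 ± 7.80 CPM (SD, n = 3 and 6, log2 fold change -0.82, SE 0.128, adjusted p 0.000763). Ets1 fell from 203 to 142 CPM (log2 fold change -0.52, adjusted p 0.000166), Fosb from 9.49 to 6.67 CPM (-0.50, adjusted p 0.0322) and Runx2 from 79.4 to 62.7 CPM (-0.34, adjusted p 0.00254). Junb, the most abundant of the list per length, was at 127 and 110 CPM (-0.20, adjusted p 0.293). Messenger RNA levels do not measure the activity of these factors, and their part in the fall of Mmp3, Mmp10 and Mmp13 was not tested.

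Among 7 signals known to induce metalloproteinases, 1 was higher and 3 were lower (median log2 fold change -0.37), against 14.6% and 14.1% of all genes tested. The count of genes higher was near that share, and was 0 without vehicle tumor 3. Il1b fell from 141 to 88.8 CPM (log2 fold change -0.67, adjusted p 0.00475), Il6 from 2.50 to 1.33 CPM (-0.91, adjusted p 0.0131) and Bsg, which encodes the inducer known as EMMPRIN, from 659 to 511 CPM (-0.37, adjusted p 0.00327). Tgfb1 rose from 157 to 189 CPM (0.27, adjusted p 0.00904). Of 6 cell surface partners, 1 was higher and 2 were lower (median log2 fold change -0.14), against the same shares of all genes tested. The collagen receptor gene Mrc2 was higher (0.55, adjusted p 0.00810), while Itgav, the integrin alpha v chain (-0.46, adjusted p 0.00167), and Cd63, a tetraspanin that binds Timp1 (-0.25, adjusted p 0.0115), were lower. Without vehicle tumor 2 or 3, only 1 of the partners was called lower.

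Of 11 genes for matrix substrates of these enzymes, 3 were higher and 2 were lower, with a median log2 fold change of 0.33, against 14.6% and 14.1% of all genes tested. The count of genes higher ran from 1 without vehicle tumor 1 or 2 to 6 without BI tumor 3. Those that rose were Eln, elastin (log2 fold change 1.41, adjusted p 0.0128), Col1a2, a chain of fibrillar collagen I (0.92, adjusted p 0.0437), and Fn1, fibronectin (0.65, adjusted p 0.00490). The fibrillar collagen genes Col1a1 (0.96, adjusted p 0.0538) and Col3a1 (0.89, adjusted p 0.0570) had changes of similar size and did not pass. Those that fell were the basement membrane collagen genes Col4a1, from 691 ± 7.07 to 418 ± 37.5 CPM (SD, n = 3 and 6, -0.73, adjusted p 5.97e-05), and Col4a2, from 393 to 260 CPM (-0.59, adjusted p 0.000151). Spp1 (osteopontin), the most abundant of the list per length, was at 4433 and 4167 CPM (-0.09, adjusted p 0.770). Of related protease families, 3 of 8 tested ADAM genes were higher and 0 lower, against the same 14.6% and 14.1% of all genes tested. Their median log2 fold change was 0.31. Those called were Adam15 (0.39, adjusted p 0.00479), Adam10 (0.32, adjusted p 0.0323) and Adam9 (0.31, adjusted p 0.00364), while Adam8, the most abundant per length, was at 224 and 218 CPM. Of 13 tested ADAMTS genes, 2 were higher and 0 lower, at a median of 0.20 and a share near the 14.6% of all genes tested. Their count higher was 0 without vehicle tumor 1, 5 without vehicle tumor 3 and 4 without BI tumor 3. The 2 genes were Adamts15 (1.06, adjusted p 0.0149) and Adamts2, a procollagen peptidase (0.79, adjusted p 0.0101), while Adamts4, the most abundant per length, was at 48.6 and 55.7 CPM.

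Marker lists of cell types known to make these enzymes were counted in the same fit, in which 14.6% of all genes tested were called higher and 14.1% lower. The lists were chosen with earlier results of these data known, which limits a comparison with these shares. Of 8 tested neutrophil markers 4 were lower and 0 higher (log2 fold changes of Retnlg -1.43, adjusted p 8.54e-05, S100a9 -1.30, adjusted p 0.000235, S100a8 -1.26, adjusted p 0.000582, and Cxcr2 -0.91, adjusted p 0.000354). Their list, in which S100a9 was the most abundant gene per length and none was at 0 in all tumors, had a median log2 fold change of -0.78 and summed to 543 to 755 CPM in the vehicle tumors and 223 to 380 CPM in the BI tumors. Most of this sum came from S100a8 and S100a9. The other 4 neutrophil markers did not pass, with log2 fold changes of -0.24 for Csf3r, -0.66 for Ngp, -0.30 for Camp and 0.30 for Ltf. Of 10 macrophage markers 9 were higher and 0 lower, with a median log2 fold change of 0.90, led by C1qb (1.11, adjusted p 1.29e-05), C1qa (1.06, adjusted p 6.63e-05) and C1qc (0.99, adjusted p 0.000103), with sums of 1743 to 2318 CPM against 3429 to 4222 CPM. For fibroblasts and mammary epithelium the counts were near these shares. Without single tumors they ran from 1 to 4 for fibroblast markers higher and from 1 to 2 for mammary epithelium markers lower, and 2 of the latter list were higher without BI tumor 1. The fibroblast list had 2 of 10 genes higher and 0 lower (Pi16 1.59, adjusted p 0.000249, and Thy1 0.51, adjusted p 0.0116), a median of 0.51 and sums of 957 to 1406 CPM against 1443 to 2029 CPM and Col6a1 as the most abundant gene per length. The mammary epithelium list had 2 of 10 lower and 0 higher (Krt18 -0.50, adjusted p 0.00636, and Krt8 -0.28, adjusted p 0.0444), with a median of -0.05 (1 gene lower without any tumor but vehicle tumor 3 and BI tumors 1 and 2) and sums of 948 to 1172 CPM against 744 to 946 CPM. Krt18 and Krt8 made up most of these sums, which therefore say little about the other markers of the list.

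Endothelial markers were higher in 3 of 8 genes, a count that was 0 without vehicle tumor 3, 1 without vehicle tumor 1 and 5 without BI tumor 3 or 5 (Tie1, Cdh5 and Kdr, with Eng the most abundant per length), with a median log2 fold change of 0.37 and sums of 410 to 420 CPM against 459 to 553 CPM. T cell markers were higher in 5 of 6 genes (led by Cd8a, 1.23, adjusted p 0.000439, with Cd3g the most abundant per length), with a median of 1.13 and sums of 55.6 to 60.7 CPM against 99.0 to 148 CPM. Of the 5 skeletal muscle and 5 adipocyte markers, 0 passed in either direction by edgeR's quasi-likelihood test or by DESeq2, with medians of -0.12 and 1.03, 0 and 1 of them had an unadjusted p of at most 0.05, and their most abundant genes per length were Tnnt3 and Fabp4. Of the lists with 0 genes called higher, the mammary epithelium list had 2 genes (Epcam and Cldn3) and the AP-1, ETS and RUNX list 0 genes at an unadjusted p of at most 0.05 in that direction, and DESeq2 called 1 and 0. For the lists given with 0 genes lower, both counts were 0 as well, and the same holds for neutrophil markers in the higher direction. Whether these shifts in cell type markers contributed to the levels of the 10 genes was not tested.

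**Figure D5:**
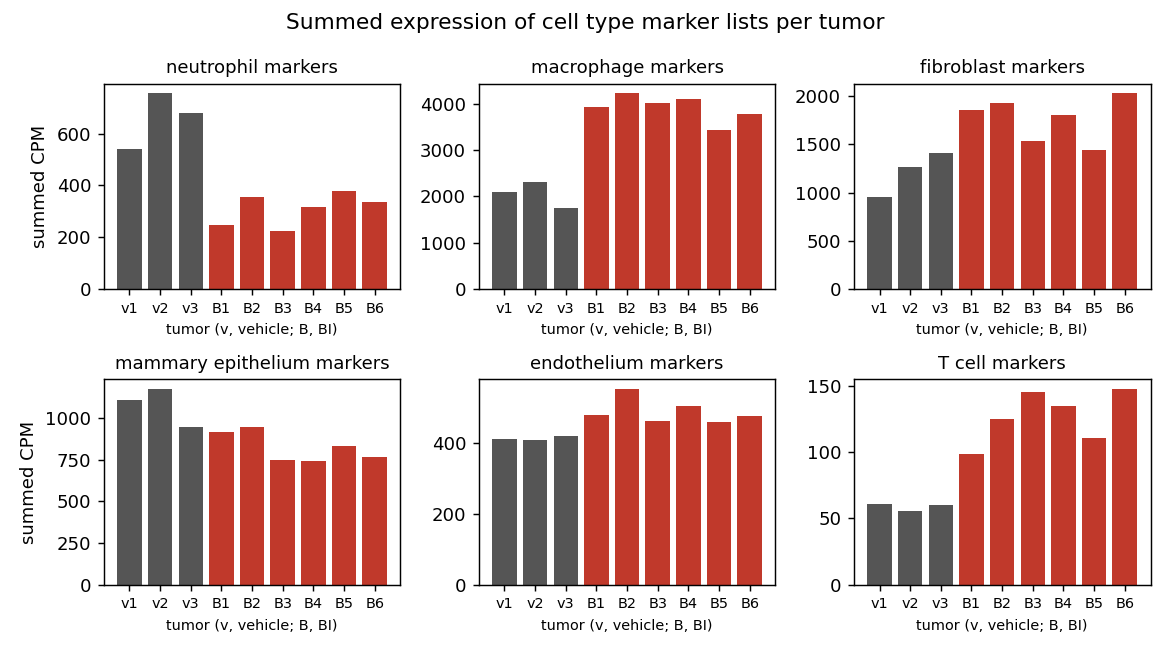
Summed CPM (y axis from 0, its own scale per list) of 6 cell type marker lists in each tumor, with vehicle tumors in grey and BI tumors in red. The sums for neutrophil markers, mostly S100a8 and S100a9, are lower in all BI tumors (223 to 380 CPM against 543 to 755 CPM). Those for mammary epithelium, mostly Krt8 and Krt18, are lower by a narrow margin (744 to 946 CPM against 948 to 1172 CPM). Those for macrophages, fibroblasts, endothelium and T cells are higher in all BI tumors.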

How the data were processed

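RNA of 9 tumors was measured by stranded messenger RNA sequencing from both ends, and the study kept only tumors with sufficient RNA quality. The authors aligned the reads to mm9 with STAR, kept reads with a single alignment, counted those starting in an annotated RefSeq exon with QuasR, and deposited raw counts for 18755 genes with gene lengths. Strand and mate use in counting are not given in the sources used here. Total counts per tumor ranged from 16931607 to 33850245, so that 3 counts amount to between 0.0884 and 0.174 CPM.

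From these counts, edgeR 4.0.16 (R 4.3.3) was run with TMM normalization, a filter on low counts (minimum count 10, minimum total 15) and its quasi-likelihood F test on all 9 tumors, with treatment as the only term. A gene was called where its p, adjusted by Benjamini-Hochberg over the 13966 genes tested, did not exceed 0.05. The SE is the size of the log2 fold change divided by the square root of F. Single genes were also compared by an exact permutation test, two-sided, of mean log2 CPM (prior count 2) over all 84 divisions of the tumors. RPKM used the deposited lengths. Replicates were numbered in accession order, the labels give no batch or pairing, and 2 tumors of a group always differed by more than sampling noise. The script was tested on simulated data. Entrez identifiers were matched to RefSeq symbols for 18700 of 18755 genes, positions were taken from GENCODE on mm9, and promoters from RefSeq on GRCm38.p6.

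Named genes are all 10 genes of the set, all tested genes of the other metalloproteinase and inhibitor lists, up to 3 called genes per direction with the largest fold change and the most abundant gene of each other list reported, and the genes most like each of the 10. For Mmp2, Mmp3, Mmp9 and Mmp14 the 3 most alike are named, and for the others the closest. Epcam, Cldn3, Krt14, Krt5, Pcsk7, Cxcr2, Runx2, Csf3r, Ngp, Camp, Ltf, Col1a1, Col3a1 and genes named as not tested were added after their values were seen. The 10 genes and the 19 other lists were chosen with earlier results of these data known. The result of 1 of these lists is not reported here. Scaling was varied (RLE, unscaled library sizes), as were the filter (none, or 1 CPM in 3 tumors), the test (likelihood ratio and exact test of edgeR, limma-voom of limma 3.58.1, DESeq2 1.42.0), limits on the fold change, a prior count of 0.5, and leaving out each tumor in turn.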

Additional observations from a re-analysis of the deposited data

Results flagged for a closer look

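Values per tumor were taken for the 10 genes, for the other genes named, without those added later, and for the lists. Among them, 94 sets of 6 BI tumors were searched for a tumor far from the rest by Dixon's test. This test by chance picks out about 5% of such sets. It picked out 6, none of them among the 10 genes. Plau was lowest in BI tumor 1 (303 CPM, with the next tumor at 349 CPM). Fn1 was highest in BI tumor 2 (17911 CPM, next 13417 CPM), and the summed matrix substrates (28302 CPM, next 24754 CPM), of which Fn1 is a part, and the summed cell surface partners (3273 CPM, next 2939 CPM) were highest in the same tumor. Fabp4 was highest in BI tumor 6 (210 CPM, next 102 CPM), as was the adipocyte list that holds it (252 CPM, next 121 CPM).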

How the results depend on the processing

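Under 2 other scalings (RLE, unscaled library sizes), 2 other filters and 4 other tests (edgeR's exact and likelihood ratio tests, limma-voom, DESeq2), 2 of the 10 genes were called higher with BI throughout, and 3 or 4 were called lower. The fourth was Timp1, in edgeR's 2 other tests and in DESeq2. An unadjusted p limit of 0.05 joined with a 1.5-fold limit left 1 gene higher (Mmp2) and 4 lower, Mmp9 being the fourth, and an adjusted p limit of 0.05 joined with a 2-fold limit left 1 higher and 2 lower. Mmp14 changed by less than either fold limit. Leave-one-out fits gave 1 to 3 genes higher and 2 to 4 lower. No log2 fold change of the 10 genes changed sign under any of these alternatives. Mmp10, Mmp13 and Mmp14 kept their call under every scaling, filter and test tried and without each tumor in turn, while the call of Mmp2 was lost without vehicle tumor 1 or 2 and that of Mmp3 without vehicle tumor 1. The counts of genes called in the lists, for which these alternatives were chosen after seeing the data, moved with the settings and with single tumors. Under the other scalings, filters and tests, the genes called higher were up to 4 for ADAMTS genes, 5 for matrix substrates, 4 for fibroblast markers, 5 for endothelial markers, 2 for cell surface partners and 1 for mammary epithelium and for adipocyte markers, and down to 1 for other inhibitors, while those called lower were down to 1 for mammary epithelium markers. In the leave-one-out fits, those called higher were 1 for other metalloproteinases without vehicle tumor 3, 0 for other inhibitors without vehicle tumor 1 and 1 without vehicle tumor 2 or BI tumor 2, 4 or 6, 0 for ADAMTS genes without vehicle tumor 1, 5 without vehicle tumor 3 and 4 without BI tumor 3, and 0 for inducing signals without vehicle tumor 3. They were 1 for matrix substrates without vehicle tumor 1 or 2, 5 without vehicle tumor 3 or BI tumor 2 and 6 without BI tumor 3, 1 for fibroblast markers without vehicle tumor 1 or 2 and 4 without BI tumor 3, and 1 for endothelial markers without vehicle tumor 1, 0 without vehicle tumor 3 and 5 without BI tumor 3 or 5. A gene was called higher, where the full data had 0, among AP-1, ETS and RUNX genes without vehicle tumor 1 (1 gene), mammary epithelium markers without BI tumor 1 (2 genes) and adipocyte markers without BI tumor 1 or 3 (1 gene). Those called lower were 1 for cell surface partners without vehicle tumor 2 or 3 and 1 for mammary epithelium markers without any tumor but vehicle tumor 3 and BI tumors 1 and 2. The counts for neutrophil, macrophage, T cell and mast cell markers, ADAM genes, activators, and AP-1, ETS and RUNX genes called lower stayed within 1.5 times. The list medians moved by less than the spread between vehicle tumors with either other scaling. With a prior count of 0.5, 30 of the 30 genes most like the 10 were the same. With 3 vehicle tumors, a p above the threshold does not show that a gene did not change.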
